A study of Mus musculus with 8 samples.

Results

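The 10 genes of retinoic acid metabolism and sensing described here were measured in testes of mice homozygous for a wildtype or a KO allele of Dnmt3a, which encodes a DNA methyltransferase: Aldh1a1, Aldh1a2, Aldh1a3, Rdh10, Rdh11, Cyp26a1, Cyp26b1, Rara, Rarg and Crabp1. They were taken by name from 8 deposited count files, each of which lists 54087 genes, and all 10 were found. RNA came from whole testes of C57BL/6 males that carried Dnmt3A KO/KO (KO below) or Dnmt3A WT/WT (WT below), at 25 or 19 days post partum (dpp). Each of the 4 groups, KO at 25 dpp, WT at 25 dpp, KO at 19 dpp and WT at 19 dpp, had 2 libraries. The labels name no Cre, no treatment and no deleted exons, and do not say whether the libraries of a group came from separate animals, so p-values measure the spread between these libraries, which may be technical.

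Retinoic acid, the active form of vitamin A, is made from retinol by way of retinal and is cleared by oxidation. Retinol dehydrogenases such as Rdh10 oxidise retinol to retinal, retinaldehyde dehydrogenases of the Aldh1a family oxidise retinal to retinoic acid, and Cyp26 enzymes hydroxylate and so inactivate it. The acid binds nuclear receptors (Rara, Rarb and Rarg, paired with Rxr proteins) that control genes directly, while Crabp1 holds it in the cytoplasm. In the mouse testis it is known as the signal that moves spermatogonia into differentiation and into meiosis, with Sertoli cells, the somatic nurse cells of the tubules, as one source and germ cells as another.

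Counts on genes summed to 26405372 to 33864327 in KO and 40972444 to 50445334 in WT at 25 dpp, and to 22515812 to 33192200 in KO and 27142989 to 31793256 in WT at 19 dpp. A count of 3, taken as the floor, was 0.0595 to 0.133 CPM (counts divided by the library's total and set to a common scale) and covers counting error only. Levels below are CPM after TMM scaling, which sets library sizes on the assumption that most genes do not differ. At 25 dpp 63.5% of all tested genes were called between KO and WT, so that assumption may not hold there. With total counts as library sizes 8 members were called at 25 dpp, as with TMM. The log2 fold change of Aldh1a1 was then 1.24 (0.78 with TMM) and that of Aldh1a2 -0.63 (-1.11 with TMM). Dnmt3a itself had 76.8 and 67.2 CPM in KO and 48.7 and 70.0 CPM in WT at 25 dpp, and 114 and 112 CPM in KO and 147 and 141 CPM in WT at 19 dpp. Its differences did not pass the test at either age with TMM (edgeR quasi-likelihood adjusted p = 0.204 at 25 dpp and 0.201 at 19 dpp), and without the deleted exons they check no label. With library sizes set to Sertoli markers, as described below, Dnmt3a was called lower in KO at 25 dpp (-1.08, edgeR adjusted p = 0.000948) and at 19 dpp (-1.18, edgeR adjusted p = 0.00672), and with total counts it was called higher at 25 dpp (0.73, edgeR adjusted p = 0.0171), as it was without WT library 2 of that age (0.56, edgeR adjusted p = 0.0134).

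The make-up of the tissue differed between genotypes and moves with every comparison below. Summed over 24 Sertoli markers, the level was 9957 and 8689 CPM in KO and 3214 and 4020 CPM in WT at 25 dpp, and 12071 and 10994 CPM in KO and 6867 and 6130 CPM in WT at 19 dpp. Summed over 14 markers of pachytene and later spermatocytes, it was 743 and 1345 CPM in KO and 12103 and 9168 CPM in WT at 25 dpp, and 237 and 301 CPM in KO and 1010 and 2290 CPM in WT at 19 dpp. The 16 spermatid markers summed to between 41.6 and 74.3 CPM in KO and between 1495 and 4910 CPM in WT at 25 dpp; at 19 dpp they stayed between 10.1 and 13.5 CPM in KO and between 42.3 and 125 CPM in WT, with 3 to 5 of the 16 at 0 in each 19 dpp library. The spermatid markers Prm1, Prm2 and Tnp2 were at 0 in all libraries but those of WT at 25 dpp. In whole tissue, fewer cells of a type and less RNA per cell cannot be told apart. Each gene was also fitted with library sizes set to the sum of the Sertoli markers. Such a fit takes that sum as equal in every library, at both ages and in both genotypes, which was not tested. It does not separate cell number from RNA per cell. That scaling moved the median log2 fold change of all 23353 tested genes to -1.50 for KO against WT at 25 dpp and to -0.79 at 19 dpp. TMM gave -0.12 and 0.00. For Aldh1a1, Cyp26b1 and Rara, whose sign it turned at both ages, the change is also given below relative to that median. Subtracting the median takes out nearly all of the scaling, so such a value is not a second test. Aldh1a1 at 25 dpp was 0.90 above the median with TMM and 0.91 with Sertoli scaling.

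At 25 dpp, most of these genes had a different level in KO than in WT. With TMM scaling Aldh1a1, Aldh1a3, Rdh10, Cyp26b1, Rara and Rarg were higher in KO, a sign that Sertoli scaling turned for Aldh1a1, Cyp26b1, Rara and Rarg. Aldh1a2 and Rdh11 were lower in KO under both scalings, and Cyp26a1 and Crabp1 did not pass the test with TMM. That is 6 members higher and 2 lower of 10, where 26.1% of all tested genes were called higher and 37.4% lower, and 63.5% in either direction. At 19 dpp 4 members were higher with TMM (Aldh1a1, Aldh1a3, Cyp26b1 and Rara, of which Aldh1a3 alone kept its sign under Sertoli scaling) and Aldh1a2 and Rdh11 were lower, where 8.80% of all tested genes were called higher and 13.2% lower, and 22.0% in either direction. The KO and WT libraries of 9 members did not overlap at 25 dpp, as was so for 84.6% of all tested genes, and those of 9 did not at 19 dpp, beside 66.4%. The median log2 fold change of the 10 members was 0.63 at 25 dpp and 0.24 at 19 dpp, beside -0.12 and 0.00 over all tested genes. With Sertoli scaling no member was called higher at either age and 4 were called lower at each, where 1.30% of all genes were called higher and 68.3% lower at 25 dpp, and 0.407% higher and 41.3% lower at 19 dpp.

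**Figure D1:**
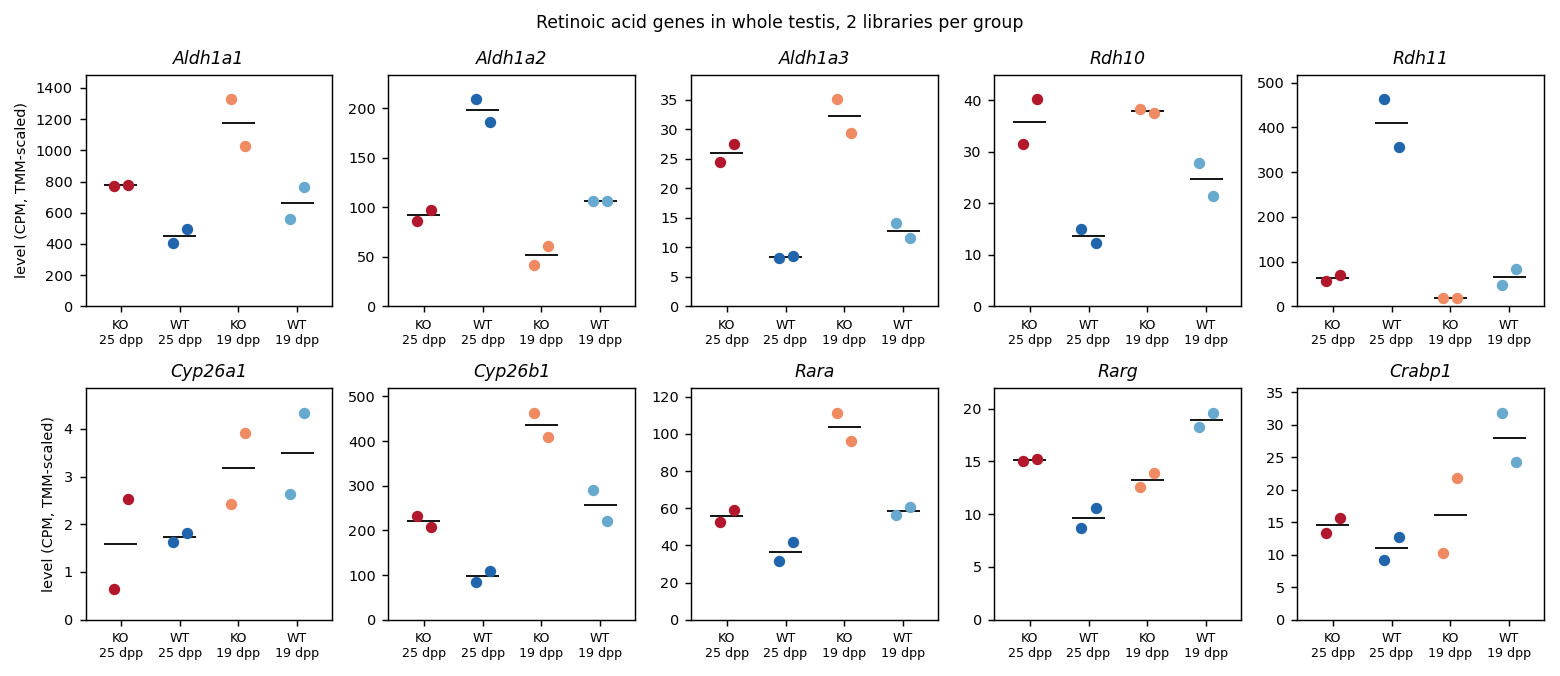
Level of each of the 10 genes in CPM after TMM scaling (vertical axes from 0) in the 4 groups; each point is 1 library and each bar the mean of 2. Rdh11 reaches 463 and 356 CPM in WT at 25 dpp and at most 83.6 CPM elsewhere, and Aldh1a3 is higher in both KO groups than in WT of either age.

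**Figure D2:**
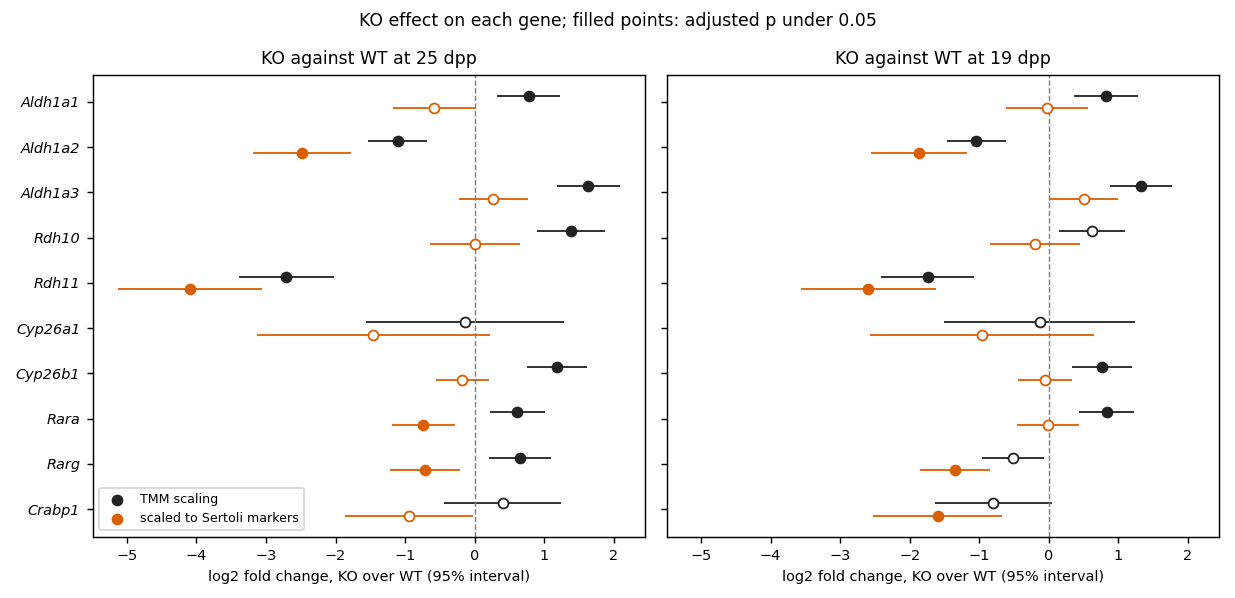
Log2 fold change of KO over WT with its 95% interval for the 10 genes at 25 dpp (left) and 19 dpp (right), with TMM scaling (black) and with library sizes set to the Sertoli marker sum (orange); filled points have an adjusted p under 0.05. Aldh1a2 and Rdh11 lie left of 0 under both scalings, while Aldh1a1, Cyp26b1 and Rara lie right of 0 with TMM and left of it with Sertoli scaling at both ages, Rdh10 crosses 0 at 19 dpp, and Rarg and Crabp1 cross it at 25 dpp.

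The retinaldehyde dehydrogenases, the enzymes of the last step of synthesis, moved in opposite directions with TMM scaling, whereas with Sertoli scaling Aldh1a1 had the sign of Aldh1a2. Aldh1a1 (chr19:20492715-20643465, plus strand, mm10 as in all coordinates here) had 774 and 779.7 CPM in KO and 409 and 497 CPM in WT at 25 dpp. The levels at 19 dpp were 1327 and 1025 CPM in KO and 563 and 768 CPM in WT. Both KO libraries lay above both WT libraries at each age. The log2 fold change was 0.78 ± 0.20 (SE) at 25 dpp (edgeR quasi-likelihood adjusted p = 0.00949) and 0.82 ± 0.20 at 19 dpp (edgeR adjusted p = 0.0240). With Sertoli scaling it turned to -0.58 (edgeR adjusted p = 0.0741) and -0.03 (edgeR adjusted p = 0.978), which is 0.91 and 0.77 above the median of all genes. In the mouse testis Aldh1a1 is known from Sertoli and Leydig cells, and the 10 Leydig markers summed to 218 and 253 CPM in KO and 507 and 677 CPM in WT at 25 dpp, and to 839 and 899 CPM in KO and 245 and 648 CPM in WT at 19 dpp. Their part in the result, like that of the Sertoli markers, was not tested. Aldh1a7 is a close paralog whose reads the counting could have split with Aldh1a1, and adding its counts changed no call of Aldh1a1.

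Aldh1a2 (chr9:71215789-71296243, plus strand), the family member known from mouse spermatocytes and spermatids, was lower in KO. It had 86.7 and 97.3 CPM in KO and 209 and 187 CPM in WT at 25 dpp. At 19 dpp it had 42.2 and 60.7 CPM in KO and 106 and 106 CPM in WT. The groups did not overlap at either age, and the KO levels at 25 dpp were still below those of WT at 19 dpp. The log2 fold change was -1.11 ± 0.18 at 25 dpp, a 2.15-fold lower level (edgeR adjusted p = 0.00158), and -1.05 ± 0.18 at 19 dpp, a 2.06-fold lower level (edgeR adjusted p = 0.0103). With Sertoli scaling the difference was -2.49 at 25 dpp and -1.86 at 19 dpp, both called lower. The pachytene and spermatid marker sums given above were lower in KO in the same libraries, and their part in the lower Aldh1a2 was not tested.

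Aldh1a3 (chr7:66390890-66427517, minus strand), the lowest of the 3 per kilobase of exon in each group, had the largest upward log2 fold change of the members at both ages. It had 24.5 and 27.5 CPM in KO and 8.12 and 8.60 CPM in WT at 25 dpp. The levels at 19 dpp were 35.0 and 29.4 CPM in KO and 14.2 and 11.5 CPM in WT. No KO library came down to the level of any WT library of either age. The level was 3.11-fold higher at 25 dpp (log2 1.64 ± 0.20, edgeR adjusted p = 0.000533) and 2.51-fold higher at 19 dpp (log2 1.33 ± 0.19, edgeR adjusted p = 0.00792). Under Sertoli scaling the difference kept its sign, at 0.27 (edgeR adjusted p = 0.283) and 0.50 (edgeR adjusted p = 0.0956), and was no longer called.

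The balance within the family differed between the KO and WT libraries. Per kilobase of exon, Aldh1a1 made up 78.2% and 76.3% of the summed Aldh1a level in KO and 46.8% and 54.4% in WT at 25 dpp, and 91.1% and 86.2% in KO and 69.5% and 75.9% in WT at 19 dpp. Aldh1a2 made up 19.1% and 20.8% in KO and 52.2% and 44.6% in WT at 25 dpp, and 6.32% and 11.1% in KO and 28.6% and 22.9% in WT at 19 dpp. These shares do not depend on library scaling, and the KO and WT libraries did not overlap at either age. The log2 ratio of Aldh1a2 to Aldh1a1 counts was 1.89 lower in KO at 25 dpp and 1.90 lower at 19 dpp. With 2 libraries against 2 the smallest p an exact permutation test can give is 0.333, so ratios and shares are given as values.

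The starts of these genes differ in base composition. The windows below run from 250 bases before to 50 after a RefSeq start (GRCm38.p6, the assembly of mm10), on the gene's own strand, with each CpG in capitals, since CpG is the site that Dnmt3a methylates. They are shown because Aldh1a1 and Aldh1a2 went opposite ways in KO with TMM scaling, and their shares of the family did so under any scaling. RefSeq lists 2 starts for Aldh1a1, and the window printed is that of the first, chr19:20492333-20492632, while the second is chr19:20601718-20602017. The Aldh1a2 window is chr9:71215539-71215838.
Aldh1a1: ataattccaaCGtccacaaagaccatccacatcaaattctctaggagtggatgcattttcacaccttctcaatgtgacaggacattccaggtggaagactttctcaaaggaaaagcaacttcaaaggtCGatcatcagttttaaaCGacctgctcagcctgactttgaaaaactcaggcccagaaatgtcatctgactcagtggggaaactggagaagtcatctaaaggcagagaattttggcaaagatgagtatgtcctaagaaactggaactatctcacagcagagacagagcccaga
Aldh1a2: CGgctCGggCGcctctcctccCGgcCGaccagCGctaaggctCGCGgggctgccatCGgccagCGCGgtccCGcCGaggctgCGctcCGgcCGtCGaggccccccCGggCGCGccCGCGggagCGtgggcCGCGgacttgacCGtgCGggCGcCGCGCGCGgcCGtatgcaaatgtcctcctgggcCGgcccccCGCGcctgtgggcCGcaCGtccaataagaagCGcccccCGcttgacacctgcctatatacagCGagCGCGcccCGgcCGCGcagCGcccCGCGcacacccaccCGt
The printed Aldh1a1 window holds 3 CpG and 43.3% G or C, the window of its second start 1 CpG and 47.0% G or C, and the Aldh1a2 window 50 CpG and 78.0% G or C. Over 32817 RefSeq promoter windows of this length the quartiles were 3, 7 and 20 CpG, and the Aldh1a2 window ranked at the 99.1 percentile. The other windows held 11 and 7 CpG for Rdh11, 26 for Cyp26a1, 9 for Cyp26b1, 5 to 21 over 4 starts of Rara, 12 and 10 for Rarg and 17 for Crabp1. Promoter methylation was not analysed here, and whether the CpG content of these windows has a part in the changes was not tested.

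**Figure D3:**
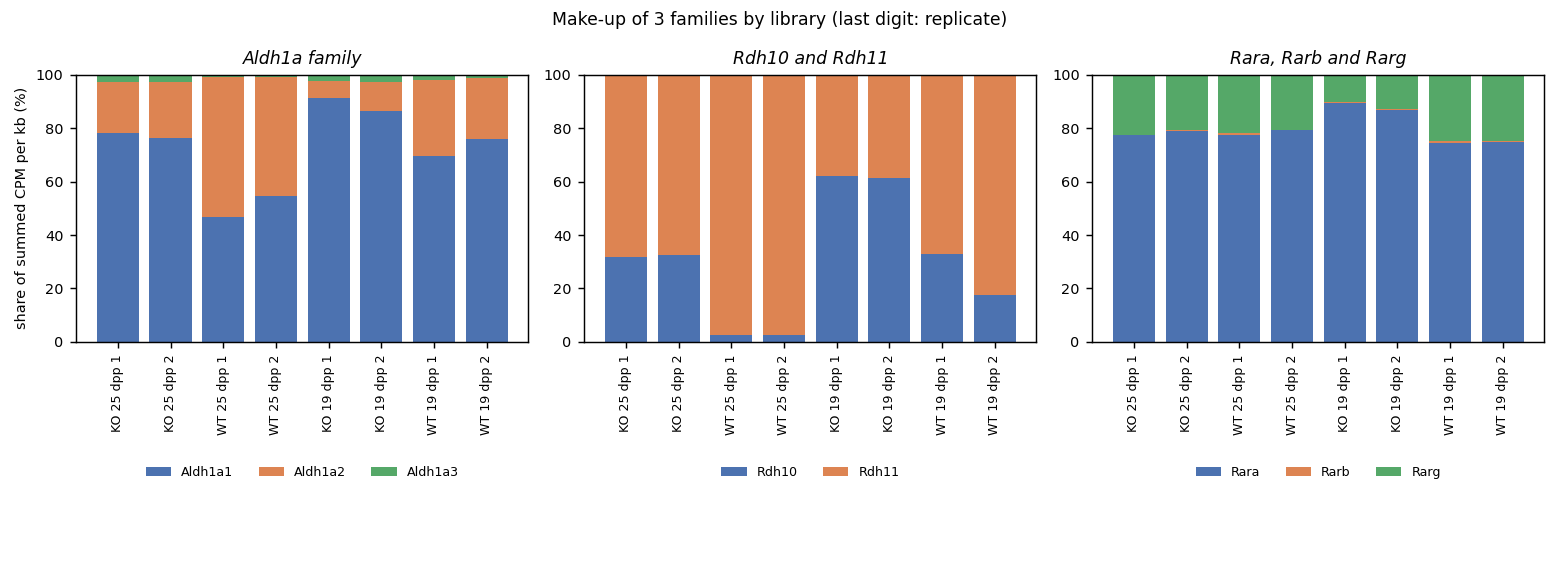
Share of each gene in the summed CPM per kilobase of its family (vertical axis, %), for 8 libraries grouped by age and genotype: the Aldh1a family, Rdh10 with Rdh11, and Rara with Rarb and Rarg. At 25 dpp Aldh1a2 takes 19.1% to 20.8% in KO against 44.6% to 52.2% in WT, and Rdh10 takes 31.9% and 32.4% in KO against 2.63% and 2.79% in WT.

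Rdh10 and Rdh11, the retinol dehydrogenases among the members, also diverged. Rdh10 (chr1:16105774-16133734, plus strand), the main retinol-oxidising enzyme of the mouse embryo, had 31.5 and 40.1 CPM in KO and 15.0 and 12.3 CPM in WT at 25 dpp. In testes of 19 dpp it had 38.3 and 37.4 CPM in KO and 27.9 and 21.5 CPM in WT. KO lay above WT at both ages without overlap, and the KO levels at the 2 ages overlapped each other. The level was 2.62-fold higher in KO at 25 dpp (log2 1.39 ± 0.21, edgeR adjusted p = 0.00115). At 19 dpp the log2 fold change of 0.62 ± 0.21 did not pass (edgeR adjusted p = 0.0682), but it was called higher by DESeq2's Wald test (adjusted p = 0.0147), in an edgeR fit of the 19 dpp libraries alone (adjusted p = 0.0492) and without WT library 1 at 25 dpp (edgeR adjusted p = 0.0466). Under Sertoli scaling the differences were 0.01 at 25 dpp and -0.20 at 19 dpp, a turned sign at 19 dpp, and neither was called.

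Rdh11 (chr12:79174337-79192293, minus strand), an enzyme that interconverts retinol and retinal and favours the reduction of retinal, had the largest downward change of the members at both ages. It had 56.0 and 69.5 CPM in KO and 463 and 356 CPM in WT at 25 dpp. At 19 dpp it had 19.4 and 19.6 CPM in KO and 46.9 and 83.6 CPM in WT. The groups did not overlap at either age, and the KO libraries at 25 dpp fell within the range of WT at 19 dpp. The level was 6.53-fold lower in KO at 25 dpp (log2 -2.71 ± 0.29, edgeR adjusted p = 0.000446) and 3.35-fold lower at 19 dpp (log2 -1.74 ± 0.28, edgeR adjusted p = 0.00948). Sertoli scaling gave -4.10 and -2.59, both called lower. The ratio of Rdh11 to Rdh10 counts within a library was 1.78 and 1.73 in KO and 30.8 and 28.9 in WT at 25 dpp, and 0.507 and 0.522 in KO and 1.68 and 3.89 in WT at 19 dpp. The excess of Rdh11 over Rdh10 was thus smaller in both KO libraries than in both WT libraries at 25 dpp, and at 19 dpp Rdh11 had fewer counts than Rdh10 in KO and more in WT.

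Of the enzymes that break down retinoic acid, Cyp26b1 carried nearly all of the measured RNA. Per kilobase it made up between 94.99% and 99.3% of the Cyp26 level in the 8 libraries. Cyp26b1 (chr6:84571414-84593908, minus strand), which shields germ cells of the fetal mouse testis from retinoic acid, had 233 and 207 CPM in KO and 83.6 and 109.8 CPM in WT at 25 dpp. In testes of 19 dpp it had 464 and 408 CPM in KO and 291 and 222 CPM in WT. KO was above WT at both ages, with no overlap. The level was 2.27-fold higher at 25 dpp (log2 1.19 ± 0.19, edgeR adjusted p = 0.00139) and 1.70-fold higher at 19 dpp (log2 0.77 ± 0.19, edgeR adjusted p = 0.0257), whereas Sertoli scaling gave -0.18 (edgeR adjusted p = 0.364) and -0.06 (edgeR adjusted p = 0.840), which is 1.32 and 0.74 above the median of all genes. In mouse testis this gene is known from peritubular myoid and Sertoli cells. The 10 peritubular myoid markers summed to 528 and 638 CPM in KO and 502 and 518 CPM in WT at 25 dpp, and to 1138 and 1070 CPM in KO and 896 and 816 CPM in WT at 19 dpp, and their part in the result was not tested.

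The balance between breakdown and synthesis genes was read from ratios within libraries. The log2 ratio of Cyp26b1 to Aldh1a1 counts was -1.73 and -1.92 in KO and -2.29 and -2.18 in WT at 25 dpp, a mean difference of 0.41. At 19 dpp it was -1.52 and -1.33 in KO and -0.95 and -1.79 in WT, where the groups overlapped and the means differed by -0.05. The mean log2 ratio of Aldh1a2 to Cyp26b1 differed by -2.30 at 25 dpp and -1.85 at 19 dpp, with no overlap. Its log2 values were -1.43 and -1.09 in KO and 1.32 and 0.77 in WT at 25 dpp, and -3.46 and -2.75 in KO and -1.45 and -1.06 in WT at 19 dpp.

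**Figure D4:**
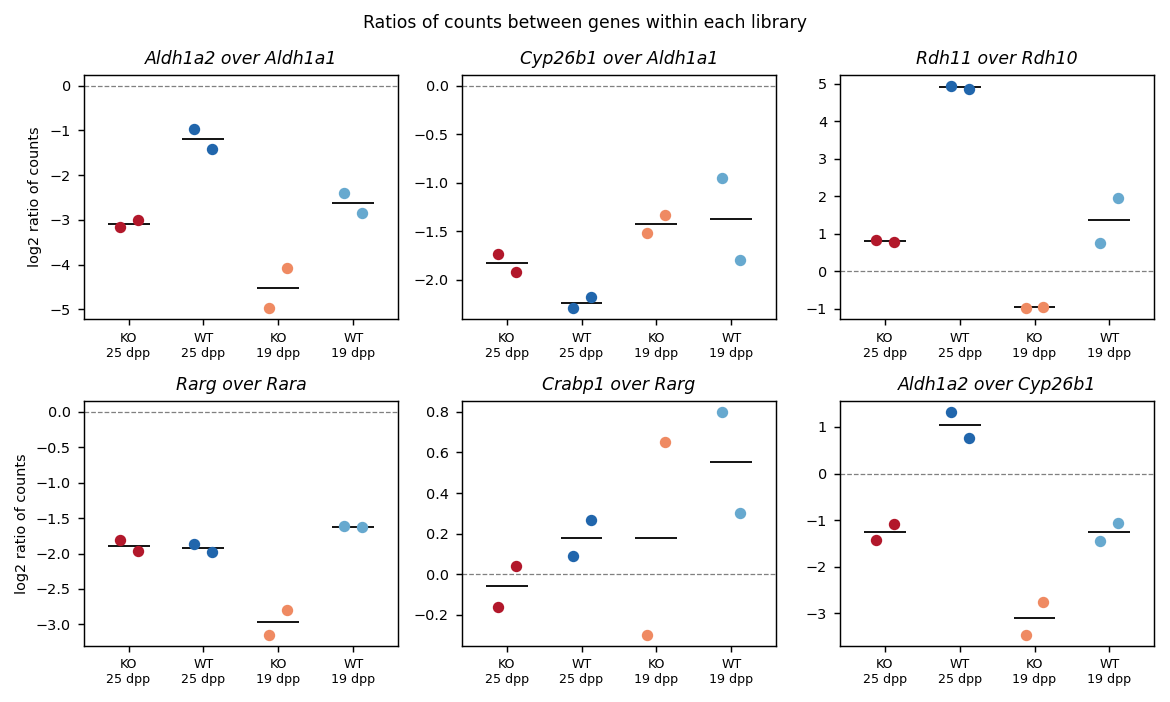
Log2 ratio of the counts of 2 genes in the same library (vertical axes) in the 4 groups; points are libraries, bars are means, and the dashed line marks equal counts. At 25 dpp Rdh11 over Rdh10 is 0.83 and 0.79 in KO against 4.94 and 4.85 in WT, and Rarg over Rara is lowest in KO at 19 dpp, at -3.14 and -2.79.

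Cyp26a1 (chr19:37697798-37701536, plus strand), a direct target of retinoic acid in many tissues, had the fewest counts of the members in every library, above the floor of 3. It had 24 and 71 raw counts in KO and 60 and 62 in WT at 25 dpp, and 58 and 138 in KO and 82 and 151 in WT at 19 dpp. These are 0.65 and 2.52 CPM in KO and 1.64 and 1.81 CPM in WT at 25 dpp, and 2.43 and 3.92 CPM in KO and 2.63 and 4.34 CPM in WT at 19 dpp. The groups overlapped at both ages. The log2 fold change was -0.14 at 25 dpp, with a 95% interval from -1.57 to 1.29, and -0.13 at 19 dpp, with an interval from -1.50 to 1.24 (edgeR adjusted p = 0.855 and 0.935), so a difference of up to about that size in either direction was not detectable here.

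The window at the start of Cyp26a1 (chr19:37697558-37697857, plus strand, RefSeq, GRCm38.p6) is shown because it holds a direct repeat of the kind that retinoic acid receptors bind, written in capitals.
Cyp26a1: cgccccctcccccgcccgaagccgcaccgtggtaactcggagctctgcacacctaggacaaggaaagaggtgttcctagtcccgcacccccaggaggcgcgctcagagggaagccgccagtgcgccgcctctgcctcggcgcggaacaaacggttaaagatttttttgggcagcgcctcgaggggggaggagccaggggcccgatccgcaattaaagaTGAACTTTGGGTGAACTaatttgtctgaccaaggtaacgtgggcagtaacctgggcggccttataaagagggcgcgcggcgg
The repeat lies at chr19:37697776-37697792, and its first base is 32 bases upstream of the start. It was found by searching both strands for AGNTCANNNNNAGNTCA, which 67 of 32817 promoter windows hold (0.204%). The stricter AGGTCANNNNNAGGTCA was in 3 windows (0.00914%) and not in this one, and AGNTCANNAGNTCA was in 35 (0.107%). None of these 3 motifs was in the windows of the other members with an entry. All 3 require A as the first base of each repeated unit, so repeats whose units begin otherwise are missed. A match is a run of letters and not a measured binding site.

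Among the receptors, Rara (chr11:98927818-98974942, plus strand), which in mice is needed in Sertoli cells for spermatogenesis, had 52.7 and 59.3 CPM in KO and 31.6 and 41.6 CPM in WT at 25 dpp. At 19 dpp it had 111 and 96.3 CPM in KO and 56.1 and 60.8 CPM in WT. KO lay above WT at both ages. The log2 fold change was 0.61 ± 0.17 at 25 dpp (edgeR adjusted p = 0.0150) and 0.83 ± 0.17 at 19 dpp (edgeR adjusted p = 0.0157), whereas with Sertoli scaling it was -0.74 (edgeR adjusted p = 0.0107, called lower) and -0.01 (edgeR adjusted p = 1.00), which is 0.76 and 0.79 above the median of all genes. Without KO library 2 at 25 dpp the call there was lost (edgeR adjusted p = 0.0791).

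Rarg (chr15:102234938-102257517, minus strand), the receptor known from mouse spermatogonia, behaved differently at the 2 ages. It had 15.0 and 15.2 CPM in KO and 8.70 and 10.6 CPM in WT at 25 dpp. The levels at 19 dpp were 12.6 and 13.9 CPM in KO and 18.3 and 19.6 CPM in WT. KO was thus above WT at 25 dpp and below it at 19 dpp, without overlap at either age. The log2 fold change was 0.65 ± 0.19 at 25 dpp (edgeR adjusted p = 0.0195) and -0.52 ± 0.19 at 19 dpp, which did not pass (edgeR adjusted p = 0.0929), although DESeq2's Wald test called it lower (adjusted p = 0.00763). The KO effect at 25 dpp exceeded that at 19 dpp by 1.17 ± 0.27 (edgeR adjusted p = 0.0265), and Rarg was the 1 member called in that contrast, where 7.68% of all tested genes were called higher and 11.4% lower, and 19.1% in either direction. Under Sertoli scaling Rarg was lower in KO at both ages, by -0.71 at 25 dpp (edgeR adjusted p = 0.0192) and -1.35 at 19 dpp (edgeR adjusted p = 0.00683), and the difference between the ages, 0.63, did not pass (edgeR adjusted p = 0.199). No member passed for that difference with Sertoli scaling, where 0.831% of all genes were called higher and 10.7% lower, and 4 were called higher with total counts as library sizes, where 23.8% of all genes were. The call of that difference was lost when any 1 library other than WT library 2 at 25 dpp was left out. The difference stayed between 1.06 and 1.28 in those fits. The call at 25 dpp was lost without KO library 1, KO library 2 or WT library 1 of that age, with log2 fold changes of 0.66, 0.64 and 0.59.

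The share of Rarg in the summed receptor level per kilobase, which no scaling changes, was 22.5% and 20.8% in KO and 21.8% and 20.6% in WT at 25 dpp. At 19 dpp it was 10.4% and 12.8% in KO and 24.9% and 24.7% in WT. The shares overlapped at 25 dpp and stood apart at 19 dpp. Summed over 15 markers, undifferentiated spermatogonia had 469 and 442 CPM in KO and 327 and 340.2 CPM in WT at 25 dpp, and 397 and 468 CPM in KO and 485 and 419 CPM in WT at 19 dpp. Their sum was thus higher in KO at 25 dpp and overlapped at 19 dpp, and its part in the Rarg result was not tested. Rarb, the remaining receptor of this family, stayed under 0.69 CPM in the 8 libraries.

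Crabp1 (chr9:54764748-54773110, plus strand), the cytoplasmic binding protein known from mouse spermatogonia, had 13.4 and 15.7 CPM in KO and 9.24 and 12.8 CPM in WT at 25 dpp. The younger testes had 10.3 and 21.8 CPM in KO and 31.8 and 24.2 CPM in WT at 19 dpp. KO lay above WT at 25 dpp and below it at 19 dpp, with a wide gap between the KO libraries at 19 dpp. Neither difference passed, at 0.40 ± 0.36 on the log2 scale (edgeR adjusted p = 0.355) and -0.80 ± 0.36 (edgeR adjusted p = 0.152), nor did the difference between the ages, 1.20 ± 0.51 (edgeR adjusted p = 0.135). With Sertoli scaling the value at 25 dpp turned to -0.94 (edgeR adjusted p = 0.0643) and the value at 19 dpp was -1.60 (edgeR adjusted p = 0.0175). The log2 ratio of Crabp1 to Rarg counts was -0.16 and 0.04 in KO and 0.09 and 0.27 in WT at 25 dpp, and -0.30 and 0.65 in KO and 0.80 and 0.30 in WT at 19 dpp, where the groups overlapped.

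Ordered by level per kilobase of exon, Aldh1a1 stood first in 3 of the 4 groups. In KO at 25 dpp it had 157 ± 0.85 CPM per kb (SD, n = 2), followed by Cyp26b1 at 41.1 ± 3.5 and Aldh1a2 at 40.6 ± 3.3, whose libraries overlapped, then Rdh11 at 18.2 and Crabp1 at 18.1, which overlapped too, and Rara at 12.8. In WT at 25 dpp Rdh11 stood first at 119 ± 22 CPM per kb, ahead of Aldh1a1 at 91.8 ± 13 and Aldh1a2 at 87.4 ± 7.0, which overlapped, and of Cyp26b1 at 18.1 and Crabp1 at 13.7, which overlapped. In KO at 19 dpp the order was Aldh1a1 at 238 ± 43, Cyp26b1 at 81.5 ± 7.3, then Rara at 23.8, Aldh1a2 at 22.7 and Crabp1 at 20.005, each overlapping the next. In WT at 19 dpp it was Aldh1a1 at 135 ± 29, Cyp26b1 at 47.9 and Aldh1a2 at 46.9, which overlapped, and Crabp1 at 34.9. At 25 dpp Rdh11 held the fourth place in KO and the first in WT, while Cyp26a1 stood last in every group, at 0.80 CPM per kb in KO and 0.87 in WT at 25 dpp and at 1.60 in KO and 1.76 in WT at 19 dpp.

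Between the ages, most members changed in WT. At 25 against 19 dpp, 2 members were higher in WT, Aldh1a2 (log2 0.90 ± 0.18) and Rdh11 (2.65 ± 0.29), and 7 were lower, where 34.9% of all tested genes were called higher and 25.4% lower, and 60.3% in either direction. The 7 were Aldh1a1, Aldh1a3, Rdh10, Cyp26b1, Rara, Rarg and Crabp1, with log2 fold changes from -0.55 (Aldh1a1) to -1.41 (Cyp26b1), of which Aldh1a1, Aldh1a3, Rdh10 and Rara turned sign under Sertoli scaling, and Cyp26a1 was not called at -1.02 ± 0.60. In KO, Aldh1a2 (0.84 ± 0.18) and Rdh11 (1.69 ± 0.28) were likewise higher at 25 dpp, and 2 members were lower, Cyp26b1 (-0.99 ± 0.19) and Rara (-0.89 ± 0.17), where 10.2% of all tested genes were called higher and 8.87% lower, and 19.1% in either direction. The other 6 did not pass in KO, with Aldh1a1 at -0.60 ± 0.20 (edgeR adjusted p = 0.0694), Aldh1a3 at -0.31 ± 0.19 and Rdh10 at -0.08 ± 0.20. Aldh1a1 was close to the threshold and was called lower in KO by DESeq2's Wald test (adjusted p = 0.0147), in the edgeR fit of the KO libraries alone (adjusted p = 0.00738), with no filter (edgeR adjusted p = 0.0286) and without WT library 1 or 2 at 19 dpp or WT library 1 at 25 dpp (edgeR adjusted p = 0.0490, 0.0481 and 0.0415). In WT the calls of Aldh1a1 and Aldh1a3 were lost with DESeq2 size factors (edgeR adjusted p = 0.0949 and 0.0658) and in the fit of the WT libraries alone (0.0758 and 0.102). With Sertoli scaling 1 member was called lower at 25 dpp in each genotype, Cyp26b1, at -0.68 in KO and -0.56 in WT, and Aldh1a2 and Rdh11 were called higher in both. Of all genes, that scaling called 8.84% higher and 2.90% lower in KO, and 50.0% higher and 2.27% lower in WT. With total counts 1 member was called higher in WT, where 27.0% of all genes were. Without KO library 1 at 19 dpp, and without KO library 2 at 25 dpp, edgeR called none of the members between the ages in KO, with 17 and 548 of all genes called there and 4 and 5 members at an unadjusted p under 0.05. Without KO library 1 at 19 dpp the log2 fold changes were 1.68 for Rdh11, 0.60 for Aldh1a2, -0.89 for Cyp26b1 and -0.78 for Rara, and without KO library 2 at 25 dpp they were 1.52, 0.75, -0.90 and -0.98 in the same order. These contrasts share their libraries with those of KO against WT. For the members other than Rarg the test of a difference in age effect between the genotypes gave adjusted p from 0.101 (Rdh10) to 1.00 (Cyp26a1) in edgeR with TMM. Rdh11 was called for that difference by DESeq2's Wald test (-1.07, adjusted p = 0.0133) and without WT library 2 at 19 dpp (-1.44, edgeR adjusted p = 0.0160), and Rdh10, Cyp26b1 and Crabp1 were called with total counts as library sizes (edgeR adjusted p = 0.0143, 0.0481 and 0.0374).

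The calls at 19 dpp rest on KO library 1. Without it edgeR called none of the 10 members for KO against WT at 19 dpp, with adjusted p from 0.0814 (Aldh1a3) to 0.173 (Aldh1a1) for the 6 genes named, and none of the 23353 genes, of which 5298 had an unadjusted p under 0.05, among them 6 members. The log2 fold changes of those 6 genes kept their sign there, at 0.62 for Aldh1a1, -0.81 for Aldh1a2, 1.20 for Aldh1a3, -1.74 for Rdh11, 0.67 for Cyp26b1 and 0.72 for Rara. Leaving out KO library 2 ended the call of Cyp26b1, leaving out WT library 1 those of Aldh1a1 and Rara, and leaving out WT library 2 those of Cyp26b1 and Rara.

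The other genes of retinoid transport, storage, oxidation and co-regulation were read from a list of 39 genes, of which 33 passed the filter on low counts. At 25 dpp 15 were higher and 8 lower in KO, where 26.1% of all tested genes were called higher and 37.4% lower, and at 19 dpp 8 were higher and 4 lower, where 8.80% and 13.2% were. The median log2 fold change of the list was 0.47 at 25 dpp and 0.18 at 19 dpp, beside -0.12 and 0.00 over all tested genes. Among oxidising enzymes, Adh1, an alcohol dehydrogenase that accepts retinol, had 21.8 and 19.5 CPM in KO and 4.96 and 6.99 CPM in WT at 25 dpp, and 54.5 and 82.6 CPM in KO and 16.4 and 14.1 CPM in WT at 19 dpp. It was higher at both ages (log2 1.79 ± 0.26 and 2.17 ± 0.26), and at 19 dpp it stayed called under Sertoli scaling (1.36, edgeR adjusted p = 0.00856). The summed markers of interstitial stroma and endothelium also lay above WT in KO at 19 dpp. The 9 of interstitial stroma summed to 3812 and 3253 CPM in KO and 1927 and 2108 CPM in WT. The 8 of endothelium summed to 243 and 190 CPM in KO and 94.2 and 110 CPM in WT. The 9 macrophage markers overlapped, at 279 and 206 CPM in KO and 96.9 and 209.8 CPM in WT. The part of these cells in the result was not tested.

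Several genes of the same list were lower in KO. Lrat, which stores retinol as its ester, had 0.67 and 0.88 CPM in KO and 5.30 and 9.11 CPM in WT at 19 dpp (log2 -3.20 ± 0.64), and Dgat1, which can also esterify retinol, had 27.0 and 35.4 CPM in KO and 64.7 and 67.8 CPM in WT (log2 -1.09 ± 0.18). At 25 dpp Dhrs4, a reductase of retinal, had 5.87 and 4.83 CPM in KO and 43.2 and 33.9 CPM in WT (log2 -2.85 ± 0.22), and Adh7, another alcohol dehydrogenase, 1.14 and 0.71 CPM in KO and 10.2 and 6.84 CPM in WT (log2 -3.19 ± 0.42). For each of these 4 genes the KO libraries lay below the WT libraries of that age. Dhrs4 and Adh7 did not do so at 19 dpp. Dhrs4 had 11.4 and 11.6 CPM in KO and 7.801 and 8.36 CPM in WT there (log2 0.51 ± 0.21, edgeR adjusted p = 0.119). Its KO effects differed by -3.35 ± 0.30 between the ages (edgeR adjusted p = 0.00477). Adh7 overlapped at 19 dpp, with 0.335 and 0.454 CPM in KO and 0.289 and 0.488 CPM in WT (log2 0.03 ± 0.49, not called). The KO effects on Adh7 differed by -3.23 ± 0.64 between the ages (edgeR adjusted p = 0.0163). Among the co-regulators of the receptors, Ncoa2, a co-activator, was higher by 0.92 ± 0.14 at 25 dpp and 0.72 ± 0.14 at 19 dpp on the log2 scale, whereas under Sertoli scaling it turned to negative values, of -0.47 and -0.11. With Sertoli scaling none of the 33 genes was called higher and 19 were called lower at 25 dpp, where 1.30% and 68.3% of all tested genes were. At 19 dpp 1 was higher and 10 lower under that scaling, where 0.407% and 41.3% of all tested genes were.

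Genes known to respond to retinoic acid were read from a list of 15, of which 14 had an entry and passed the filter, and 6 of which stand in the list above as well. At 25 dpp 10 were higher and 1 lower in KO, where 26.1% and 37.4% of all tested genes were, with a median log2 fold change of 1.10. At 19 dpp 3 were higher and 1 lower, where 8.80% and 13.2% were, with a median of -0.33. The KO effect was called greater at 25 than at 19 dpp for 7 of the 14 and smaller for none, where 7.68% and 11.4% of all tested genes were, with a median difference of 1.31. Stra8, which germ cells switch on in response to retinoic acid before meiosis, had 118 and 135 CPM in KO and 29.4 and 37.7 CPM in WT at 25 dpp, and 45.5 and 72.9 CPM in KO and 124 and 88.0 CPM in WT at 19 dpp. KO libraries lay above WT at 25 dpp and below it at 19 dpp.

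Stra8 was 3.77-fold higher in KO at 25 dpp (log2 1.92 ± 0.27, edgeR adjusted p = 0.00107) and did not pass at 19 dpp (log2 -0.84 ± 0.27, edgeR adjusted p = 0.0612). Its KO effects differed by 2.76 ± 0.38 between the ages (edgeR adjusted p = 0.00713), and by 2.21 under Sertoli scaling (edgeR adjusted p = 0.0259), the 1 gene of the list whose difference was still called there. Kit, the receptor of differentiating spermatogonia, had 62.2 and 66.7 CPM in KO and 38.0 and 46.5 CPM in WT at 25 dpp, and 51.0 and 70.8 CPM in KO and 98.5 and 94.4 CPM in WT at 19 dpp. It was called higher at 25 dpp (0.61 ± 0.19) and lower at 19 dpp (-0.66 ± 0.18), whereas Sertoli scaling gave lower values at both ages (-0.75 and -1.48). Nrip1, a co-regulator induced by retinoic acid, was called higher at both ages (1.17 ± 0.14 and 0.96 ± 0.14) and so was Tgm2, a transglutaminase (0.63 ± 0.23 and 1.08 ± 0.23), but Sertoli scaling turned Nrip1 to -0.20 and Tgm2 to -0.70 at 25 dpp.

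Kit, Stra8, Sohlh1 and Sohlh2 are also among the 10 markers of differentiating spermatogonia, whose summed level was 1130 and 1366 CPM in KO and 1774 and 1698 CPM in WT at 25 dpp, and 481 and 735 CPM in KO and 1242 and 1321 CPM in WT at 19 dpp. Of those 10, 7 were called higher and 1 lower in KO at 25 dpp, and 4 were called lower and none higher at 19 dpp, where the shares of all tested genes were 26.1% higher and 37.4% lower at 25 dpp, and 13.2% lower and 8.80% higher at 19 dpp. Their part in the result was not tested. With Sertoli scaling no gene of the response list was called higher at either age, and 4 at 25 dpp and 6 at 19 dpp were called lower. Of all tested genes, that scaling called 1.30% higher and 68.3% lower at 25 dpp, and 0.407% higher and 41.3% lower at 19 dpp.

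**Figure D5:**
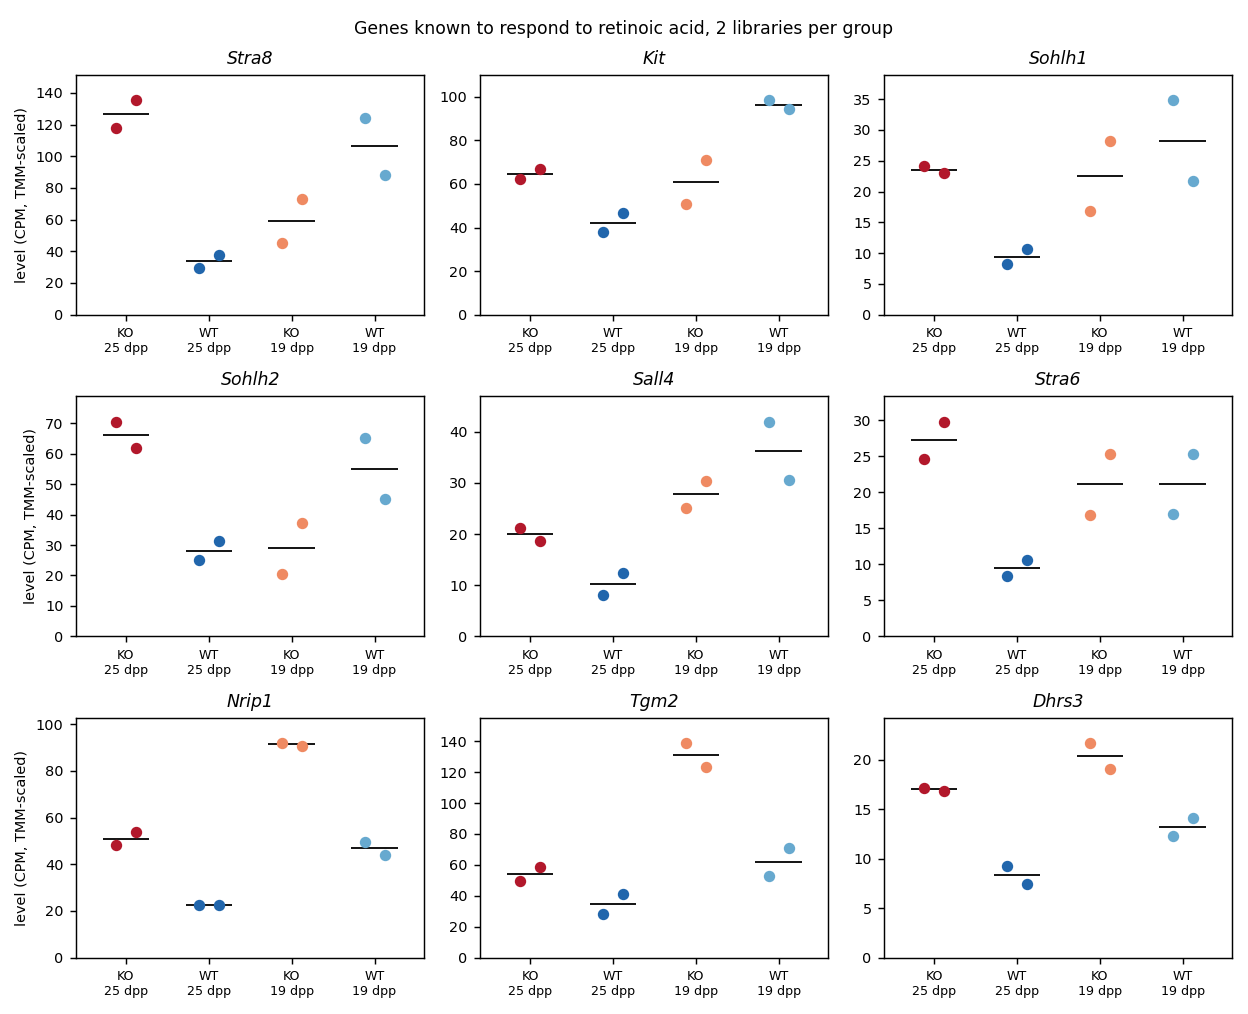
Level in CPM after TMM scaling (vertical axes from 0) of 9 genes known to respond to retinoic acid, in the 4 groups; points are libraries and bars are means of 2. Stra8 is at 118 and 135 CPM in KO and at 29.4 and 37.7 CPM in WT at 25 dpp, with KO below WT at 19 dpp, while Nrip1 and Tgm2 have KO above WT at both ages under this scaling.

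The genes whose profile over the 8 libraries was most like that of a member were found by the root mean square difference of centred log2 CPM over 14280 genes with a mean of at least 1 CPM. For Aldh1a1 they were Smim1 (0.07), Tmem206 (0.07) and Pla2g15 (0.08), and for Aldh1a2 they were Nelfe (0.07), Hdac1 (0.07) and Eif5 (0.08). For Rara they were Gnas (0.07), Prdx2 (0.07) and Tst (0.08), and for Cyp26b1 they were Vopp1 (0.07), Pdpn (0.08) and Ltbp4 (0.08). Hdac1, a histone deacetylase, had 117 and 129 CPM in KO and 298 and 261 CPM in WT at 25 dpp, and 63.6 and 79.6 CPM in KO and 138 and 139 CPM in WT at 19 dpp, a profile that runs with that of Aldh1a2. Pdpn, podoplanin, had 35.3 and 27.2 CPM in KO and 11.1 and 16.9 CPM in WT at 25 dpp, and 66.0 and 59.1 CPM in KO and 44.6 and 30.7 CPM in WT at 19 dpp.

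Rdh11 was nearest to Znrd1as (0.11), an antisense gene whose reads cannot be told apart from those of its partner without the strand setting, then to Crem (0.13) and Cfap36 (0.15). Crem, a transcription factor of mouse spermatids, had 26.5 and 35.2 CPM in KO and 241 and 169.9 CPM in WT at 25 dpp, and 10.3 and 12.6 CPM in KO and 24.0 and 42.6 CPM in WT at 19 dpp, so that, as for Rdh11, WT at 25 dpp stood far above the rest. Aldh1a3 was nearest to Tgfbr3 (0.15), Tspan8 (0.17) and Arid5b (0.17), Rdh10 to Tec, Elmo1 and Prr36 (0.14 each), and Rarg to Mmp17 (0.10), Vars2 (0.11) and Plaa (0.11). The distances were greatest for the members with the lowest or most scattered counts, with Pou3f1 and Pdxp at 0.18 from Crabp1 and Cnn1 (0.29), C1ql1 (0.30) and Tvp23a (0.32) from Cyp26a1. Cnn1 is among the peritubular myoid markers summed above.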

How the data were processed

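Per the labels' protocols, the 8 libraries were stranded mRNA libraries from Trizol-extracted, DNase-treated RNA of whole testis. STAR 2.7.0a, featureCounts 1.5.1 and the genome build mm10 are named in the submitters' processing notes. The deposited values are raw counts of reads per gene, 1 file per library, as the authors made them. The gene annotation, the strand setting of the counting and the handling of reads with several alignments are not given in the sources used here. Counts on 1205 repeat families, between 4.10% and 5.68% of a library, were kept out of library sizes and tests.

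After filterByExpr by group, 23353 of 54087 genes were kept, all 10 members among them. They were TMM-scaled and fitted with edgeR 4.0.16 (R 4.3.3) by robust quasi-likelihood with 1 mean per group and 4 residual degrees of freedom. Contrasts were KO against WT within an age, 25 against 19 dpp within a genotype, and the KO effect at 25 dpp minus that at 19 dpp, with Benjamini-Hochberg adjustment over all 23353 genes at 0.05. An SE was computed as the size of a log2 fold change divided by the root of its F statistic. Levels per kilobase use the union of exons in GENCODE M21 (GRCm38, the assembly of mm10), which also gave the coordinates, 1-based. Promoter windows are from RefSeq, with an entry for Aldh1a1, Aldh1a2, Rdh11, Cyp26a1, Cyp26b1, Rara, Rarg and Crabp1. Aldh1a1 overlaps C730002L08Rik and Gm6684, and Aldh1a2 overlaps Gm48124, on the opposite strand.

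All 10 members, Dnmt3a and the 3 genes most like each member were named, and some single genes that this rule names are not reported here. Of the list genes, those past the threshold could be named, up to 6 per contrast by p and 4 by level. The members and lists were chosen with earlier results of these data known. The libraries of each group differed by far more than sampling noise (chi-square per degree of freedom from 15.1 to 82.1). Alternatives were DESeq2 size factors, total counts or Sertoli markers as scaling, 2 other filters, limma-voom (limma 3.58.1), DESeq2's Wald test (version 1.42.0), fits of the compared groups alone, a replicate block and leaving out each library. After the data were seen, a fit with Aldh1a7 counts added to Aldh1a1 was included. The procedure was tested on simulated data.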

Additional observations from a re-analysis of the deposited data

Results flagged for a closer look

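The KO effect on Rarg differed between the ages by 1.17 on the log2 scale, past the threshold of the test of that difference (edgeR adjusted p = 0.0265). It did not pass under Sertoli scaling, at 0.63 (edgeR adjusted p = 0.199), or with the replicate block (edgeR adjusted p = 0.0551). Leaving out 1 library at a time moved it between 1.06 and 1.31, with the call lost in most of those fits, as given above. Rarg had 15.0 and 15.2 CPM in KO and 8.70 and 10.6 CPM in WT at 25 dpp, and 12.6 and 13.9 CPM in KO and 18.3 and 19.6 CPM in WT at 19 dpp.

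For Crabp1 both KO libraries lay above both WT libraries at 25 dpp and below them at 19 dpp, and the KO effects differed by 1.20 on the log2 scale. The test of that difference did not pass (edgeR adjusted p = 0.135), and the difference was 0.65 under Sertoli scaling (edgeR adjusted p = 0.472). Leaving out 1 library at a time moved it between 0.76, without KO library 1 at 19 dpp (edgeR adjusted p = 0.272), and 1.90, without KO library 2 at 19 dpp, the 1 such fit in which it passed (edgeR adjusted p = 0.0452).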

How the results depend on the processing

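With Sertoli scaling the members called higher were 0 in KO against WT at 19 dpp (4 with TMM), 0 at 25 dpp (6) and 0 for the difference between the ages (1), and those called lower 4 at 19 dpp (2), 4 at 25 dpp (2), 1 in KO between ages (2) and 1 in WT between ages (7). With total counts 1 member was higher in WT between ages (2) and 4 for the difference (1). The replicate block left 0 members for the difference (Rarg 1.17, edgeR adjusted p = 0.0551) and changed no other call of a member. Same-numbered libraries did not deviate together (r from -0.088 to 0.048 over 23353 genes). With 2 libraries a group each r rests on 1 deviation per gene and group, so it cannot exclude a pairing by number. The Wald test of DESeq2 called 1 member lower for the difference (Rdh11 -1.07, adjusted p = 0.0133), where edgeR called 0, with Rdh11 at -0.96 and 4 members at an unadjusted p under 0.05. Of all 23353 genes the Wald test called 4921 lower for that difference, and edgeR 2671.

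Leaving out 1 library at a time, members called higher and lower ranged from 0 to 5 and 0 to 2 at 19 dpp, 4 to 6 and 2 to 2 at 25 dpp, 0 to 2 and 0 to 3 in KO between ages, 2 to 2 and 4 to 7 in WT between ages, and 0 to 1 and 0 to 1 for the difference. A lone library was assumed to vary like the others.

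Sertoli scaling reversed the sign at 19 dpp of Aldh1a1 (-0.029), Rdh10 (-0.20), Cyp26b1 (-0.057) and Rara (-0.0077). At 25 dpp it reversed Aldh1a1 (-0.58), Cyp26b1 (-0.18), Rara (-0.74), Rarg (-0.71), Crabp1 (-0.94) and Dnmt3a (-1.08). Between ages it reversed Aldh1a3 (0.013), Rdh10 (0.24) and Crabp1 (0.15) in KO and Aldh1a1 (0.28), Aldh1a3 (0.25), Rdh10 (0.034) and Rara (0.16) in WT, and for the difference Aldh1a3 (-0.23) and Cyp26b1 (-0.12). Total counts reversed Cyp26a1 at 25 dpp (0.31) and, for the difference, Aldh1a1 (0.49), Aldh1a2 (0.49), Cyp26a1 (0.52) and Rara (0.32). With no filter Aldh1a1 (0.055), Aldh1a2 (0.041) and Cyp26a1 (0.070) were reversed for the difference, each near 0. Leaving out libraries moved Cyp26a1 between -0.48 and 0.28 at 19 dpp and between -1.41 and 0.55 at 25 dpp, and in KO between ages Rdh10 between -0.26 and 0.084 and Crabp1 between -0.59 and 0.48. For the difference it moved Aldh1a1 between -0.29 and 0.16, Aldh1a2 between -0.30 and 0.27 and Cyp26a1 between -1.27 and 0.68. Beyond the libraries left out, causes were not tested. At least 5 CPM in 2 libraries gave no value for Cyp26a1.

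DESeq2 size factors, limma-voom and the added Aldh1a7 counts reversed no member. The Wald test called 8 members at 19 dpp (6 in edgeR), adding Rdh10 and Rarg, and 5 in KO between ages (4), adding Aldh1a1. It also called more of all 23353 genes, 7784 at 19 dpp (5145 in edgeR) and 7276 in KO between ages (4451). DESeq2 size factors and the fit of the compared groups alone each left 7 members in WT between ages (9), and total counts ended the call of Cyp26b1 at 19 dpp (edgeR adjusted p = 0.0646). Depth limits Cyp26a1, with 24 to 151 counts per library, more than the other members.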
